A study of Homo sapiens with 17 samples.

Results

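The genes described here encode the nuclear subunits of oxidative phosphorylation, complexes I to V of the mitochondrial inner membrane. They were taken from the deposited expression table by gene name, with patterns for the NDUF, SDH, UQCR, CYC1, COX4 to COX8 and ATP5 families, and with assembly factors (NDUFAF) and pseudogene symbols left out. The rule matched 88 of 20218 gene names: 39 of complex I, 4 of complex II, 9 of complex III, 17 of complex IV and 19 of complex V. It used no measured value. It also took in names outside the classic complexes, such as ATP5S and ATP5SL and the read-through genes NDUFC2-KCTD14 and ATP5J2-PTCD1. It left NDUFA4 under its older complex I name, although the protein is now placed in complex IV. COX7A2L, a factor of respiratory supercomplexes, came in with complex IV.

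Expression had been measured by RNA-seq in 17 libraries of the human embryonic stem cell line H9, in cells labelled as a SHOX2 line and as sinoatrial node-like throughout, and sorted on GFP and mCherry. The groups were GFP+mCherry+ (3 libraries at D25, 25 days after directed differentiation, and 2 at D40, 40 days after it), GFP-mCherry+ (written GFP-Mcherry+ in the labels; 3 at each day) and GFP-mCherry- (3 at each day). The titles of the first group read GFP+mCherry+- with a trailing minus, while its genotype labels read GFP+mCherry+, the name used here, and the mCherry state of its cells rests on that label. The genotype labels of the GFP-mCherry- libraries at D25 lack the final sign that their titles have. The growth protocol shared by all labels starts with CHIR99021, BMP4 and Activin A. It then gives XAV939 alone for cardiomyocytes, and cucurbitacin, retinoic acid, SU5402, XAV939, Tyrphostin AG 490 and chidamide for the sinoatrial procedure, without saying which procedure each sorted population came from. The labels name no gene behind mCherry, and only 1 line was used. They do not say whether the libraries of a group are separate cultures, so p-values here measure variation among libraries that may be technical in part or in whole.

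Oxidative phosphorylation turns the electrons of NADH and succinate into ATP. Complexes I and II pass them to ubiquinone, complex III to cytochrome c and complex IV to oxygen. Complexes I, III and IV pump protons across the inner membrane, and complex V, the ATP synthase, uses the returning protons to make ATP. Working cardiomyocytes are among the cells richest in mitochondria, and several subunits exist as pairs of genes of which 1 is made mainly in heart and skeletal muscle. The subunits encoded by the mitochondrial genome were not analysed here, since no gene name of the table starts with MT-.

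The libraries followed the GFP label: SHOX2, the reporter's namesake and a transcription factor of the sinus node, lay at 58.5 to 90.2 FPKM (fragments scaled by transcript length and library size) in GFP+mCherry+ at D40, at 1.39 to 2.41 FPKM in GFP-mCherry+ and at 0.253 to 1.32 FPKM in GFP-mCherry-. The SHOX2 levels at D25 were 49.0 to 139 FPKM in GFP+mCherry+, 0.901 to 1.73 FPKM in GFP-mCherry+ and 0.323 to 0.545 FPKM in GFP-mCherry-. The groups share the sinoatrial label but not the level of cardiomyocyte markers. The summed level of 10 cardiomyocyte markers (sarcomere genes such as TNNT2, MYH6 and TTN, and RYR2) was 6868 to 17286 FPKM in GFP+mCherry+, 24832 to 33101 FPKM in GFP-mCherry+ and 817 to 1183 FPKM in GFP-mCherry- at D25. At D40 it was 8140 to 12955 FPKM in GFP+mCherry+, 24506 to 37198 FPKM in GFP-mCherry+ and 740 to 3542 FPKM in GFP-mCherry-. Libraries of a group correlated at 0.947 to 0.984 over genes on the log2 scale, and 16489 to 17801 genes lay above 0 in a library. The depth of the libraries is unknown from FPKM. In bulk samples, fewer cells of a type and less RNA per cell cannot be told apart. The libraries of D25 are numbered 1 to 9 and those of D40 from 10 to 18, so day and library order cannot be told apart.

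Promoters of 6 genes are printed because these genes carry the findings: the muscle and common forms of subunit 6A, the testis and common forms of subunit 6B, COX5B and NDUFS7. Each run is the 250 bases before the RefSeq start, from GRCh38.p14, 5′ to 3′ on the gene's own strand. Capitals mark a match to a motif known for nuclear genes of the respiratory chain: the ERR motif AAGGTCA, the ETS motif CCGGAAG, the NRF1 motif (GCGCA and GCGC with any 1 base between them) or the YY1 motif GCCATNTT, in either orientation.
COX6A2 (chr16:31428361-31428610, minus strand): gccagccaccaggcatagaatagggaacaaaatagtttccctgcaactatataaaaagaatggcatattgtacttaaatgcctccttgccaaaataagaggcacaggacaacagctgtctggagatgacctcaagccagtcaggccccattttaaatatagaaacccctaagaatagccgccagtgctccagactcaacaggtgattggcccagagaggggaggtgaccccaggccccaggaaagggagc
COX6A1 (chr12:120437863-120438112, plus strand): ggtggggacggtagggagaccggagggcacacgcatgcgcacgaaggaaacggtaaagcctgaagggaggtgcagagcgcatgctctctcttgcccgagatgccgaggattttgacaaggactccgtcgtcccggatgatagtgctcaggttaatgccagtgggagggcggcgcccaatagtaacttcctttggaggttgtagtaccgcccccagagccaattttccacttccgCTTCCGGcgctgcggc
COX6B2 (chr19:55354720-55354969, minus strand): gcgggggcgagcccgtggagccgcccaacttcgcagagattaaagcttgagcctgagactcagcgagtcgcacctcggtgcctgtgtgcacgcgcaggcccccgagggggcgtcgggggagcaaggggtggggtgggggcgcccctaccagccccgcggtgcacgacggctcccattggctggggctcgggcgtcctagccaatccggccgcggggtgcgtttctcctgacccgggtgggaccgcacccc
COX6B1 (chr19:35648073-35648322, plus strand): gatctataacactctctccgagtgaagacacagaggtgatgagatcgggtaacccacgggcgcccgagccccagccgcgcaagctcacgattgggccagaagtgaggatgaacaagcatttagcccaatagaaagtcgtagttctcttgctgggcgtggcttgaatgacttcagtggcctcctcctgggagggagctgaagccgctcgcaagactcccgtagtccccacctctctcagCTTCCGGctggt
COX5B (chr2:97645812-97646061, plus strand): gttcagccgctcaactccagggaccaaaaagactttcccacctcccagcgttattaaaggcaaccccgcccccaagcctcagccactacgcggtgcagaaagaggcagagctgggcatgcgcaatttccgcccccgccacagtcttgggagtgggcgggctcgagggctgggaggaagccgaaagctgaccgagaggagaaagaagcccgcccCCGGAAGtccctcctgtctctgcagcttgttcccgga
NDUFS7 (chr19:1383657-1383906, plus strand): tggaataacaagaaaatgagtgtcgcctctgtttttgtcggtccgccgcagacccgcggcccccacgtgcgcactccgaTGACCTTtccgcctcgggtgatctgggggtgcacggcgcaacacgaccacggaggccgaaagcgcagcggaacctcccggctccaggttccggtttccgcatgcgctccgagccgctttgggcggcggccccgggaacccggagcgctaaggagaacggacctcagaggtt

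Neither COX6A2 nor COX6B2 held any of these motifs in its printed 250 bases, while COX6A1, COX6B1 and COX5B held an ETS match and NDUFS7 an ERR match. With the 50 bases after the start counted too, COX6A1 and NDUFS7 also held a YY1 match and COX5B another ETS match. The COX6A2 window also differed in base composition, with 1 CpG and 49.2% G and C, against 19 CpG and 60% in COX6A1. COX6B2 stood at the other end with 26 CpG and 72.8%, against 14 CpG and 57.6% in COX6B1. Promoter windows of 300 bases (250 before and 50 after the start) were found for 70 of the 88 genes, and 42 of these 70 (60%) held at least 1 of the 4 motifs on either strand, against 28.9% of 15843 protein-coding promoters. The YY1 motif was found in 22 subunit promoters (31.4%, against 7.92% of all), ETS in 19 (27.1%, against 14.2%), NRF1 in 16 (22.9%, against 8.58%) and ERR in 8 (11.4%, against 3.13%). None of the 4 motifs contains another. A match is a description of letters, not a binding site, and a window without one says nothing about the factor.

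Most subunit genes of complexes I, III, IV and V, and 2 of the 4 of complex II, were lower in GFP+mCherry+ than in GFP-mCherry+ cells. Most were higher in GFP-mCherry+ than in GFP-mCherry- cells. COX6B2, an isoform of complex IV, ran the other way, and so did the low isoform COX4I2 at D25. Their summed level was 14350 and 10696 FPKM in the GFP+mCherry+ libraries of D40, 21969 to 29422 FPKM in GFP-mCherry+ and 9975 to 13291 FPKM in GFP-mCherry-. At D25 the sums were 12201 to 13302 FPKM in GFP+mCherry+, 23557 to 25499 FPKM in GFP-mCherry+ and 10972 to 14088 FPKM in GFP-mCherry-. At both days every GFP-mCherry+ library lay above every other library, and the GFP+mCherry+ and GFP-mCherry- libraries overlapped. As a share of all FPKM, the subunits took 2.18% ± 0.433 in GFP+mCherry+ (SD, n = 2), 4.08% ± 0.482 in GFP-mCherry+ (SD, n = 3) and 1.98% ± 0.265 in GFP-mCherry- (SD, n = 3) at D40. The shares at D25 were 2.23% ± 0.0677, 3.78% ± 0.11 and 2.03% ± 0.183 in GFP+mCherry+, GFP-mCherry+ and GFP-mCherry- (SD, n = 3 each).

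**Figure D1:**
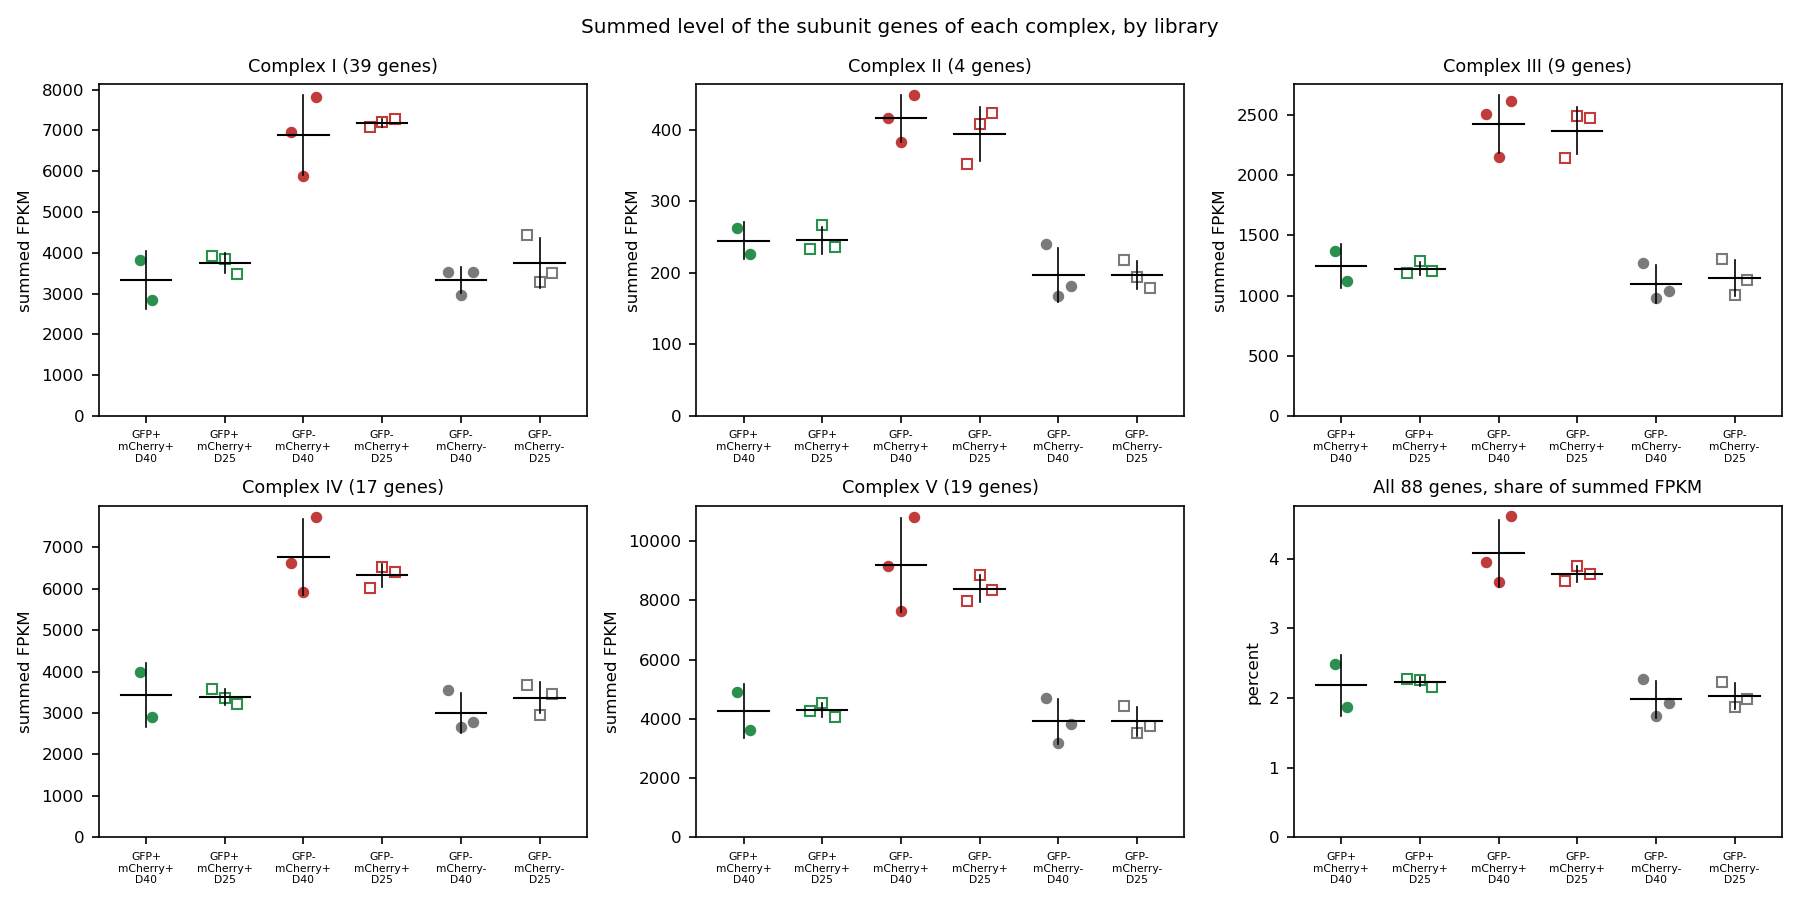
Summed FPKM of the subunit genes of each complex in each library, and the share of all 88 genes in the summed FPKM of the library (percent). Points are libraries (filled circles D40, open squares D25), horizontal lines group means and vertical lines SDs (n = 3, and n = 2 for GFP+mCherry+ at D40). In every panel the GFP-mCherry+ libraries lie above all others; for all 88 genes their mean share is 4.08% at D40 and 3.78% at D25.

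A gene was tested where it reached 1 FPKM in at least 2 libraries, which 84 of the 88 did, among 14845 genes in all. COX7A1, the muscle form of subunit 7A, did not pass (at most 0.285 FPKM in any library), and neither did COX7B2 (at most 0.649 FPKM), ATP5L2 (at most 0.0957 FPKM) or ATP5J2-PTCD1 (at most 1.13 FPKM). Values were tested as log2(FPKM + 1) with limma over all 17 libraries, and a gene was called where its Benjamini-Hochberg adjusted p over all 14845 genes was under 0.05. All differences below are log2 differences on this scale, which understates the change of low genes.

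Between GFP+mCherry+ and GFP-mCherry+ at D25, 66 of the 84 tested subunit genes were lower, 2 were higher and 16 were not called. Among all 14845 genes 8.37% were called lower, 12.0% higher and 20.4% in either direction. The subunits' median difference was -0.86, beside 0.06 over all genes. The same comparison at D40 had 70 lower, 1 higher and 13 not called, against 9.30% lower, 16.2% higher and 25.5% in either direction over all genes, with a median of -0.96 beside 0.08. Single libraries weighed on the size of these counts. Without library 5 (GFP-mCherry+) 42 subunits were called at D25, where 11.9% of all genes were. Leaving out library 7 (GFP+mCherry+) gave 45, where 13.3% of all genes were called. Without library 13 (GFP+mCherry+), its group keeps 1 library and takes its spread from the other groups. Most of the subunit calls at D40 were then lost, with a median of -0.75 beside 0.02 over all genes. A fit of only the 2 groups compared called 15 at D40. The share of all genes called in that fit is not given here, so the count cannot be set against it. The interaction term, for a difference that changes between the days, called 0 of 84 subunits (0 with an unadjusted p under 0.05). It called only 2 of all 14845 genes (0.0135%), so it could hardly detect a change in any list. The subunits' estimates ran from -0.83 to 1.79, and a change was not detected rather than shown to be absent. The 2 days use separate libraries.

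The rise of GFP-mCherry+ over GFP-mCherry- took in 63 subunits at D25, with 2 lower and 19 not called, where 12.1% of all genes were called higher, 16.4% lower and 28.5% in either direction. It took in 65 at D40, with 1 lower and 18 not called, against 13.3% called higher, 18.5% lower and 31.9% in either direction over all genes. The subunits' medians were 0.93 at D25 and 0.94 at D40, and those of all genes -0.11 and -0.09. These comparisons share the GFP-mCherry+ libraries with the ones above. Between GFP+mCherry+ and GFP-mCherry-, 0 of 84 subunits were called at D25 (8 with an unadjusted p under 0.05), where 11.0% of all genes were called, 5.77% higher and 5.27% lower, and their median difference was 0.08. The count depends on the setting: with limma's library weights 23 were called, 14 higher and 9 lower. The share of all genes called with those weights is not given here. At D40 the same pair had 1 call, with 15 subunits at an unadjusted p under 0.05, against 11.8% of all genes called, 7.03% higher and 4.75% lower, and a median of 0.05. The 1 subunit was NDUFB7, lower in GFP+mCherry+ (-2.03, SE 0.60, adjusted p = 0.0373). Without library 13 its difference was -1.17. No subunit was called without library 15 or 18, where 8.23% and 5.71% of all genes were. Leaving out library 12 gave 11 calls, 7 higher and 4 lower, where 13.9% of all genes were called.

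**Figure D2:**
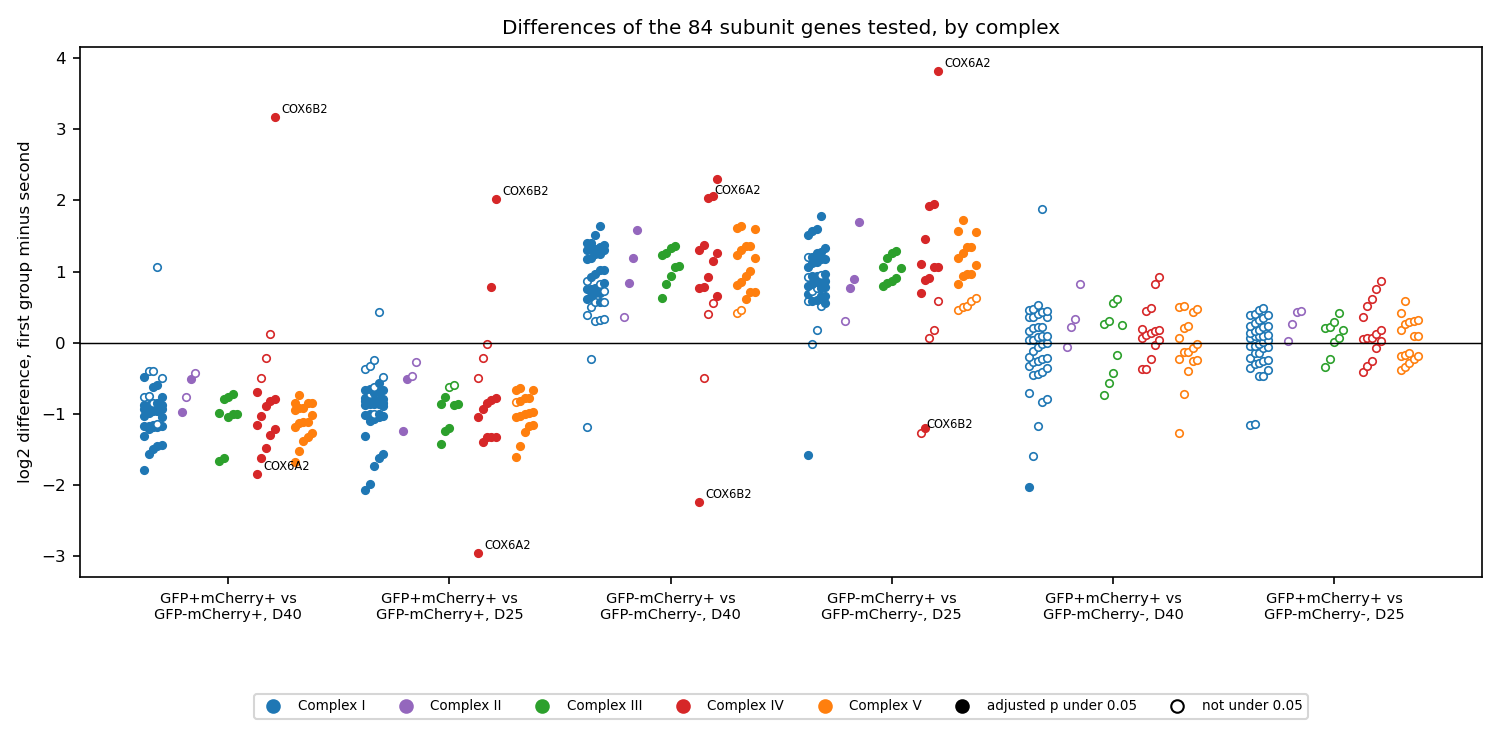
log2 difference (first group minus second, log2(FPKM + 1) scale) of each of the 84 tested subunit genes in 6 comparisons, coloured by complex; filled points have an adjusted p under 0.05. The genes of all 5 complexes lie below 0 between GFP+mCherry+ and GFP-mCherry+ with few exceptions and above 0 between GFP-mCherry+ and GFP-mCherry-, and COX6A2 and COX6B2 lie farthest out between GFP+mCherry+ and GFP-mCherry+, in opposite directions.

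Complex I, the NADH dehydrogenase, had 31 of 39 subunits lower in GFP+mCherry+ than in GFP-mCherry+ at D25 and 31 at D40, with none higher. Its summed level was 3331 ± 710 FPKM in GFP+mCherry+ (SD, n = 2), 6885 ± 976 FPKM in GFP-mCherry+ (SD, n = 3) and 3339 ± 316 FPKM in GFP-mCherry- (SD, n = 3) at D40. NDUFS6, an accessory subunit of the arm that binds NADH, had the largest called fall of the complex at D25. Its levels were 30.3, 39.4 and 35.3 FPKM in GFP+mCherry+ and 157, 178 and 119 FPKM in GFP-mCherry+. The groups do not overlap (-2.07, SE 0.28, adjusted p = 0.000289), and the difference was -1.45 at D40 (SE 0.31, adjusted p = 0.00345).

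NDUFS7 carries the last iron-sulfur cluster before ubiquinone and lies on chromosome 19 (hg19 1383526 to 1395583). It stood at 26.4, 38.2 and 40.6 FPKM in GFP+mCherry+ at D25, against 130, 153 and 139 FPKM in GFP-mCherry+ and 49.3, 46.5 and 49.2 FPKM in GFP-mCherry-. All GFP-mCherry+ libraries lay far above the rest, and the fall was called (-1.99, SE 0.47, adjusted p = 0.00879). At D40 it stood at 10.8 and 7.16 FPKM in GFP+mCherry+, 45.9, 7.97 and 23.5 FPKM in GFP-mCherry+ and 7.32, 23.6 and 25.7 FPKM in GFP-mCherry-. One GFP-mCherry+ library was as low as the GFP+mCherry+ libraries, the groups overlap, and the difference was not called (-1.15, SE 0.53, adjusted p = 0.124). NDUFB7, an accessory subunit of the membrane arm, had the largest fall of the complex at D40 (-1.80, SE 0.60, adjusted p = 0.0367); its groups overlap there, and the call is lost without library 11, 13 or 17 (adjusted p 0.0995 to 0.459).

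NDUFA4 was the most abundant gene listed under complex I. It had 384 and 271 FPKM in GFP+mCherry+ at D40, against 805, 773 and 1072 FPKM in GFP-mCherry+. Levels at D25 were 308, 195 and 256 FPKM in GFP+mCherry+, and 774, 619 and 841 FPKM in GFP-mCherry+. The groups are apart at both days (-1.44, SE 0.27, adjusted p = 0.00173 at D40; -1.57, SE 0.24, adjusted p = 0.000761 at D25), and NDUFA4 had the largest rise of the complex in GFP-mCherry+ over GFP-mCherry- at D40 (1.64, adjusted p = 0.000134). NDUFS1, the largest subunit, was listed at 0 in library 17 (GFP-mCherry+) and library 12 (GFP-mCherry-) of D40, whose groups otherwise hold 79.1 and 76.4 FPKM and 31.3 and 34 FPKM. Its GFP+mCherry+ levels at D40 were 44.9 and 31.3 FPKM. With the zeros kept NDUFS1 was not called in any of these comparisons, and its D40 difference from GFP-mCherry+ was 1.07. Treating the zeros as missing values turned it to -1.03 (adjusted p = 0.00428). Such single zeros occur in 42 values of 34 genes in the whole table, NDUFS1 being the 1 subunit among them. NDUFC2-KCTD14, which shares its reads with NDUFC2, was the 1 complex I name lower in GFP-mCherry+ than in GFP-mCherry- (-1.58 at D25, adjusted p = 0.0466). It is uncertain because of the shared reads, and the call was lost with a pseudocount of 0.1 (adjusted p = 0.16), with no filter (adjusted p = 0.0821), under median-of-ratios or quantile scaling (adjusted p = 0.0688 and 0.0904) and without library 8 (adjusted p = 0.171).

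Complex II, succinate dehydrogenase, had the smallest median differences of the 5 complexes between GFP+mCherry+ and GFP-mCherry+, -0.49 at D25 and -0.64 at D40, with 2 of 4 subunits lower at each day. The other complexes had medians of -0.85 to -0.99 at D25 and -0.89 to -1.12 at D40. SDHA, the flavoprotein that oxidises succinate, had 81.5 and 78.7 FPKM in GFP+mCherry+ at D40, 164, 108 and 143 FPKM in GFP-mCherry+ and 64.7, 39.2 and 35.7 FPKM in GFP-mCherry-. Levels at D25 were 45.3, 74.3 and 78.3 FPKM in GFP+mCherry+, 127, 169 and 169 FPKM in GFP-mCherry+ and 52.7, 49.2 and 39.2 FPKM in GFP-mCherry-. Every GFP-mCherry+ library was highest at either day. The GFP+mCherry+ difference from GFP-mCherry+ was called at D25 (-1.25, SE 0.25, adjusted p = 0.00337) and not at D40 (-0.76, SE 0.28, adjusted p = 0.055). SDHB, the iron-sulfur subunit, had the reverse pattern of calls, -0.46 at D25 (adjusted p = 0.0712) and -0.98 at D40 (adjusted p = 0.00234). The membrane anchor SDHD fell by 0.51 at D25 (adjusted p = 0.0317) and by 0.51 at D40 (adjusted p = 0.0428), while the other anchor, SDHC, was not called in either (-0.28 and -0.42). Both SDHD calls depend on the setting. The D25 call was lost under quantile normalisation (adjusted p = 0.0564), with only the 2 groups compared (adjusted p = 0.0512) and without library 4, 5, 7 or 8 (adjusted p = 0.0946 to 0.119). The D40 call was lost in those 2 fits (adjusted p = 0.0609 and 0.22), with library weights (adjusted p = 0.0878) and without library 13 (adjusted p = 0.385), among others. In GFP-mCherry+ against GFP-mCherry-, SDHA, SDHB and SDHD rose at both days, SDHA by 1.70 at D25 and 1.58 at D40, and SDHC was not called.

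Complex III, which passes electrons from ubiquinol to cytochrome c, had 7 of 9 genes lower in GFP+mCherry+ than in GFP-mCherry+ at D25 and 9 of 9 at D40. UQCRB and UQCRFS1, the Rieske iron-sulfur protein, were the 2 not called at D25 (adjusted p = 0.0766 and 0.0686). UQCRC1, a core protein, had 157 and 66.5 FPKM in GFP+mCherry+ at D40 against 447, 207 and 347 FPKM in GFP-mCherry+, and 114, 185 and 185 FPKM against 402, 417 and 453 FPKM at D25. Its groups are apart at both days, and it had the largest fall of the complex at D25 (-1.42, SE 0.31, adjusted p = 0.00577). CYC1, the cytochrome c1 that hands electrons on, had the largest at D40 (-1.67, SE 0.33, adjusted p = 0.00244). With only the 2 groups compared, the D40 calls of CYC1, UQCRC1, UQCRC2, UQCRB, UQCRFS1 and UQCR11 were lost (adjusted p = 0.0624 to 0.0874). Without library 13 the D40 differences of CYC1 and UQCRC1 were -1.10 and -1.01. All 9 genes rose in GFP-mCherry+ over GFP-mCherry- at both days, up to 1.29 at D25 in UQCRC2 and 1.36 at D40 in UQCRB.

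Complex IV, cytochrome c oxidase, had 10 subunits lower and 2 higher of 15 tested in GFP+mCherry+ against GFP-mCherry+ at D25, and 11 lower and 1 higher at D40. The subunits not called were COX7A2 (-0.50), COX7A2L (-0.02) and COX8C (-0.22) at D25, and COX4I2 (0.12), COX7A2 (-0.49) and COX7A2L (-0.22) at D40. COX5A, a subunit on the matrix side of the enzyme, had 259 and 140 FPKM in GFP+mCherry+ at D40, 506, 571 and 710 FPKM in GFP-mCherry+ and 214, 115 and 112 FPKM in GFP-mCherry-. At D25 it had 169, 208 and 183 FPKM in GFP+mCherry+, 410, 562 and 518 FPKM in GFP-mCherry+ and 146, 122 and 123 FPKM in GFP-mCherry-. The GFP-mCherry+ libraries exceed all others, and GFP+mCherry+ differed from them by -1.40 at D25 (SE 0.26, adjusted p = 0.00214) and by -1.62 at D40 (SE 0.29, adjusted p = 0.00122). Against GFP-mCherry-, COX5A in GFP-mCherry+ was 1.92 higher at D25 and 2.06 higher at D40.

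COX5B, which binds zinc on the matrix side, had 99.6, 92.0 and 86.6 FPKM in GFP+mCherry+ at D25, 247, 233 and 225 FPKM in GFP-mCherry+ and 98.0, 82.5 and 75.9 FPKM in GFP-mCherry-. GFP+mCherry+ and GFP-mCherry- overlap there, and GFP-mCherry+ stands alone (-1.33, SE 0.20, adjusted p = 0.000697). The D40 levels were 88.7 and 55.0 FPKM in GFP+mCherry+, 183, 113 and 189 FPKM in GFP-mCherry+ and 66.1, 59.5 and 64.5 FPKM in GFP-mCherry-. The order is the same (-1.16, SE 0.23, adjusted p = 0.0021), and the D40 call is lost without library 13 (adjusted p = 0.0638). COX7B, on the X chromosome, had the largest rise of any subunit in GFP-mCherry+ over GFP-mCherry- at D40 (2.30, SE 0.27, adjusted p = 1.73e-05). COX7C was the most abundant subunit of the complex, with 1327 and 863 FPKM in GFP+mCherry+ at D40 and 2157, 1966 and 2510 FPKM in GFP-mCherry+.

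The paired isoforms of complex IV did not move alike. COX6A2, the heart and skeletal muscle form of subunit 6A (chromosome 16, hg19 31439052 to 31439967), had the largest fall of all subunits at D25. Its levels were 0.841, 1.45 and 3.43 FPKM in GFP+mCherry+, 21.8, 32.5 and 11.3 FPKM in GFP-mCherry+ and 0.225, 0.619 and 0.684 FPKM in GFP-mCherry-. The 3 groups do not overlap, and GFP+mCherry+ differed from GFP-mCherry+ by -2.96 (SE 0.42, adjusted p = 0.000477). At D40 it had 0.690 and 0.246 FPKM in GFP+mCherry+, 7.61, 1.76 and 4.97 FPKM in GFP-mCherry+ and 0.633, 0.275 and 0 FPKM in GFP-mCherry-, the last being listed at 0. GFP-mCherry+ again lay above the others (-1.85, SE 0.47, adjusted p = 0.00981), a call lost without library 13 (adjusted p = 0.117). Against GFP-mCherry-, COX6A2 in GFP-mCherry+ was 3.82 higher at D25 (adjusted p = 9.91e-06) and 2.03 higher at D40 (adjusted p = 0.00176). Its GFP+mCherry+ and GFP-mCherry- levels did not pass the test of their difference (0.86, SE 0.42, adjusted p = 0.214 at D25; 0.18, SE 0.47, adjusted p = 0.831 at D40).

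COX6A1, the form of most tissues, remained the major gene of the pair everywhere: COX6A2 made up 2.04% ± 1.52 of the FPKM of the pair in GFP+mCherry+ at D25, 11.2% ± 4.05 in GFP-mCherry+ and 0.600% ± 0.346 in GFP-mCherry- (SD, n = 3 each). COX6A1 was itself lower in GFP+mCherry+ than in GFP-mCherry+, by -0.81 at D25 (adjusted p = 0.0183) and -0.79 at D40 (adjusted p = 0.0294). Both calls depend on the setting. The D25 call was lost without library 2, 4, 5 or 7 (adjusted p = 0.0512 to 0.0732). The D40 call was lost with only the 2 groups compared (adjusted p = 0.149) and without library 11 or 17 (adjusted p = 0.0536 and 0.116), among others.

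COX6B2, known as the testis form of subunit 6B (chromosome 19, hg19 55860674 to 55866182), ran the other way. It had 30.6 and 119 FPKM in GFP+mCherry+ at D40, 3.76, 13.2 and 3.67 FPKM in GFP-mCherry+ and 18.9, 45.0 and 36.0 FPKM in GFP-mCherry-. At D25 it had 55.7, 47.1 and 59.6 FPKM in GFP+mCherry+, 11.1, 19.04 and 9.35 FPKM in GFP-mCherry+ and 23.8, 49.6 and 26.7 FPKM in GFP-mCherry-. GFP-mCherry+ was lowest at both days with no overlap, and library 13 held the highest single value, far above its group mate. COX6B2 was higher in GFP+mCherry+ than in GFP-mCherry+ by 2.01 at D25 (SE 0.49, adjusted p = 0.0103) and by 3.17 at D40 (SE 0.55, adjusted p = 0.00108). It was lower in GFP-mCherry+ than in GFP-mCherry- at D40 (-2.25, adjusted p = 0.00255), and the D25 value was not called (-1.26, adjusted p = 0.0668). Its share of the COX6B pair was 13.7% ± 2.48 in GFP+mCherry+ at D25, 1.94% ± 0.702 in GFP-mCherry+ and 10.2% ± 5.46 in GFP-mCherry- (SD, n = 3 each). Its partner COX6B1 was lower in GFP+mCherry+ than in GFP-mCherry+ by -0.94 at D25 (adjusted p = 0.00657) and -1.22 at D40 (adjusted p = 0.00208). Without library 13 the D40 difference of COX6B1 was -0.95.

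COX4I2, the form of subunit 4 known for lung and low oxygen, was low throughout. It had 3.39, 2.17 and 2.92 FPKM in GFP+mCherry+ at D25, 1.10, 1.94 and 0.718 FPKM in GFP-mCherry+ and 3.80, 5.03 and 3.40 FPKM in GFP-mCherry-. The groups do not overlap, with GFP-mCherry+ lowest. COX4I2 was the 1 gene of complex IV called lower in GFP-mCherry+ than in GFP-mCherry- at D25. GFP+mCherry+ exceeded GFP-mCherry+ by 0.79 (SE 0.24, adjusted p = 0.0309), a call lost under quantile normalisation and in a fit of the 2 groups alone (adjusted p = 0.107 and 0.0569), and without library 1, 2, 7 or 8 (adjusted p = 0.0787 to 0.14). At D40 all 8 libraries held 0.516 to 2.20 FPKM, and GFP+mCherry+ against GFP-mCherry+ was not called (0.12). COX4I1, its common partner, was lower in GFP+mCherry+ at both days, by -0.85 at D25 (adjusted p = 0.00501) and -0.70 at D40 (adjusted p = 0.02). Its D40 call was lost under quantile normalisation (adjusted p = 0.12) and in a fit of the 2 groups alone (adjusted p = 0.181). It was also lost without library 11 or 17 (adjusted p = 0.0645 and 0.0693), among others. NDUFA4L2, a relative of NDUFA4 known from low oxygen, had 1.00, 2.14 and 2.58 FPKM in GFP+mCherry+ at D25 against 11.3, 8.05 and 4.92 FPKM in GFP-mCherry+ (-1.62, SE 0.44, adjusted p = 0.0172), the opposite direction to COX4I2. Like that of COX4I2, this call is unstable, being lost without library 1, 2 or 5 (adjusted p = 0.0536 to 0.0707). COX8C, a testis form, stayed at or below 1.50 FPKM. It reached the filter of 1 FPKM only in libraries 11 and 14, both GFP-mCherry+ of D40. Its D40 fall of 0.82 (adjusted p = 0.0375) is therefore no fair test, since it passed only through the group where it is high. The call was lost with library weights and with only the 2 groups compared (adjusted p = 0.24 and 0.187). COX8C is 1 of the 11 genes of complex IV called lower at D40.

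**Figure D3:**
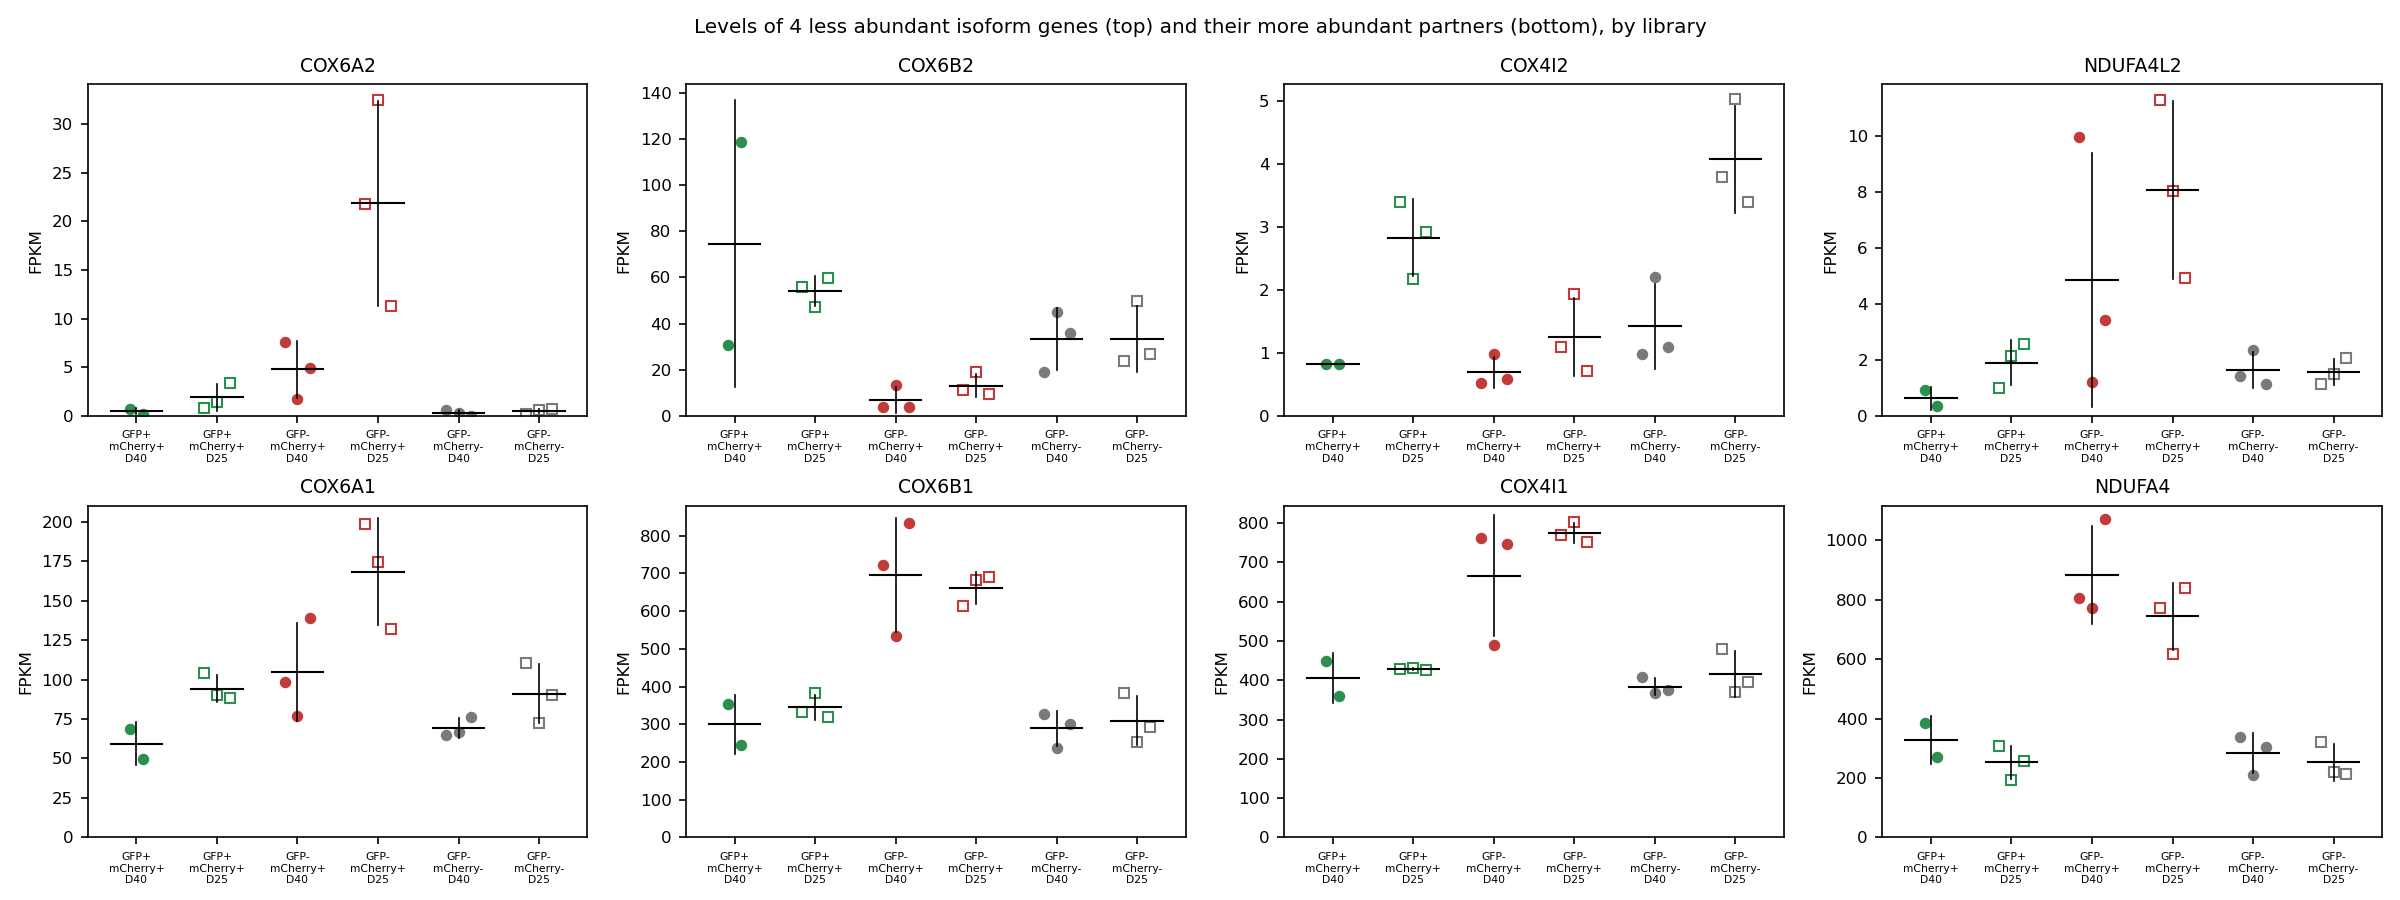
FPKM of 4 isoform genes (top row) and their more abundant partners (bottom row) in each library; points are libraries (filled circles D40, open squares D25), horizontal lines means, vertical lines SDs (n = 3, and n = 2 for GFP+mCherry+ at D40). COX6A2 is highest and COX6B2 lowest in GFP-mCherry+, while all 4 partners are highest on average in GFP-mCherry+ at either day.

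Complex V, the ATP synthase, had 16 of 17 tested genes lower in GFP+mCherry+ than in GFP-mCherry+ at D25 and 17 of 17 at D40. The 1 not called, at D25, was ATP5J2 (-0.84, adjusted p = 0.0513). With only the 2 groups compared, the D40 calls of ATP5B, ATP5C1, ATP5D, ATP5E, ATP5G2, ATP5J2, ATP5L and ATP5SL were lost (adjusted p = 0.0632 to 0.132). ATP5G3, 1 of the 3 genes for the membrane ring subunit c (chromosome 2, hg19 176040986 to 176049335), had 315 and 198 FPKM in GFP+mCherry+ at D40, 672, 541 and 775 FPKM in GFP-mCherry+ and 238, 166 and 243 FPKM in GFP-mCherry-. Levels at D25 were 258, 319 and 268 FPKM in GFP+mCherry+, 621, 738 and 661 FPKM in GFP-mCherry+ and 267, 206 and 215 FPKM in GFP-mCherry-. GFP-mCherry+ exceeded both other groups, which overlap (-1.39, SE 0.24, adjusted p = 0.000941 at D40; -1.26, SE 0.21, adjusted p = 0.00131 at D25, for GFP+mCherry+ against GFP-mCherry+).

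The other genes for the same protein fell too. ATP5G1 fell by 1.46 at D25 (adjusted p = 0.0027) and by 1.53 at D40 (adjusted p = 0.00284). Without library 13 its D40 difference was -1.23. ATP5G2 fell by 0.82 at D25 (adjusted p = 0.0271) and by 0.95 at D40 (adjusted p = 0.0191). The D25 call of ATP5G2 was lost under quantile normalisation (adjusted p = 0.103) and without library 1, 4, 5, 7 or 8 (adjusted p = 0.0512 to 0.113). Its D40 call was lost with only the 2 groups compared (adjusted p = 0.103) and without library 11 (adjusted p = 0.0718), among others. ATP5G2 as a share of the summed ATP5G2 and ATP5G3 was 55.5% ± 1.72 in GFP+mCherry+ at D25, 48.0% ± 5.13 in GFP-mCherry+ and 63.5% ± 4.78 in GFP-mCherry- (SD, n = 3 each). ATP5B, the catalytic beta subunit and the most abundant gene of the complex, had 1238 and 1058 FPKM in GFP+mCherry+ at D40, 2447, 2137 and 3042 FPKM in GFP-mCherry+ and 1134, 599 and 767 FPKM in GFP-mCherry-. GFP-mCherry+ stood above both other groups, and the difference of GFP+mCherry+ from it was -1.14 (SE 0.25, adjusted p = 0.00436). Without library 13 this difference was -1.02. ATP5D, the delta subunit of the stalk, had the largest fall of the complex at both days, -1.61 at D25 (SE 0.42, adjusted p = 0.0145) and -1.68 at D40 (SE 0.47, adjusted p = 0.0164). The D25 call is lost without library 1 or 5 (adjusted p = 0.0523 and 0.0553) and the D40 call without library 11 or 13 (adjusted p = 0.0623 and 0.26).

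**Figure D4:**
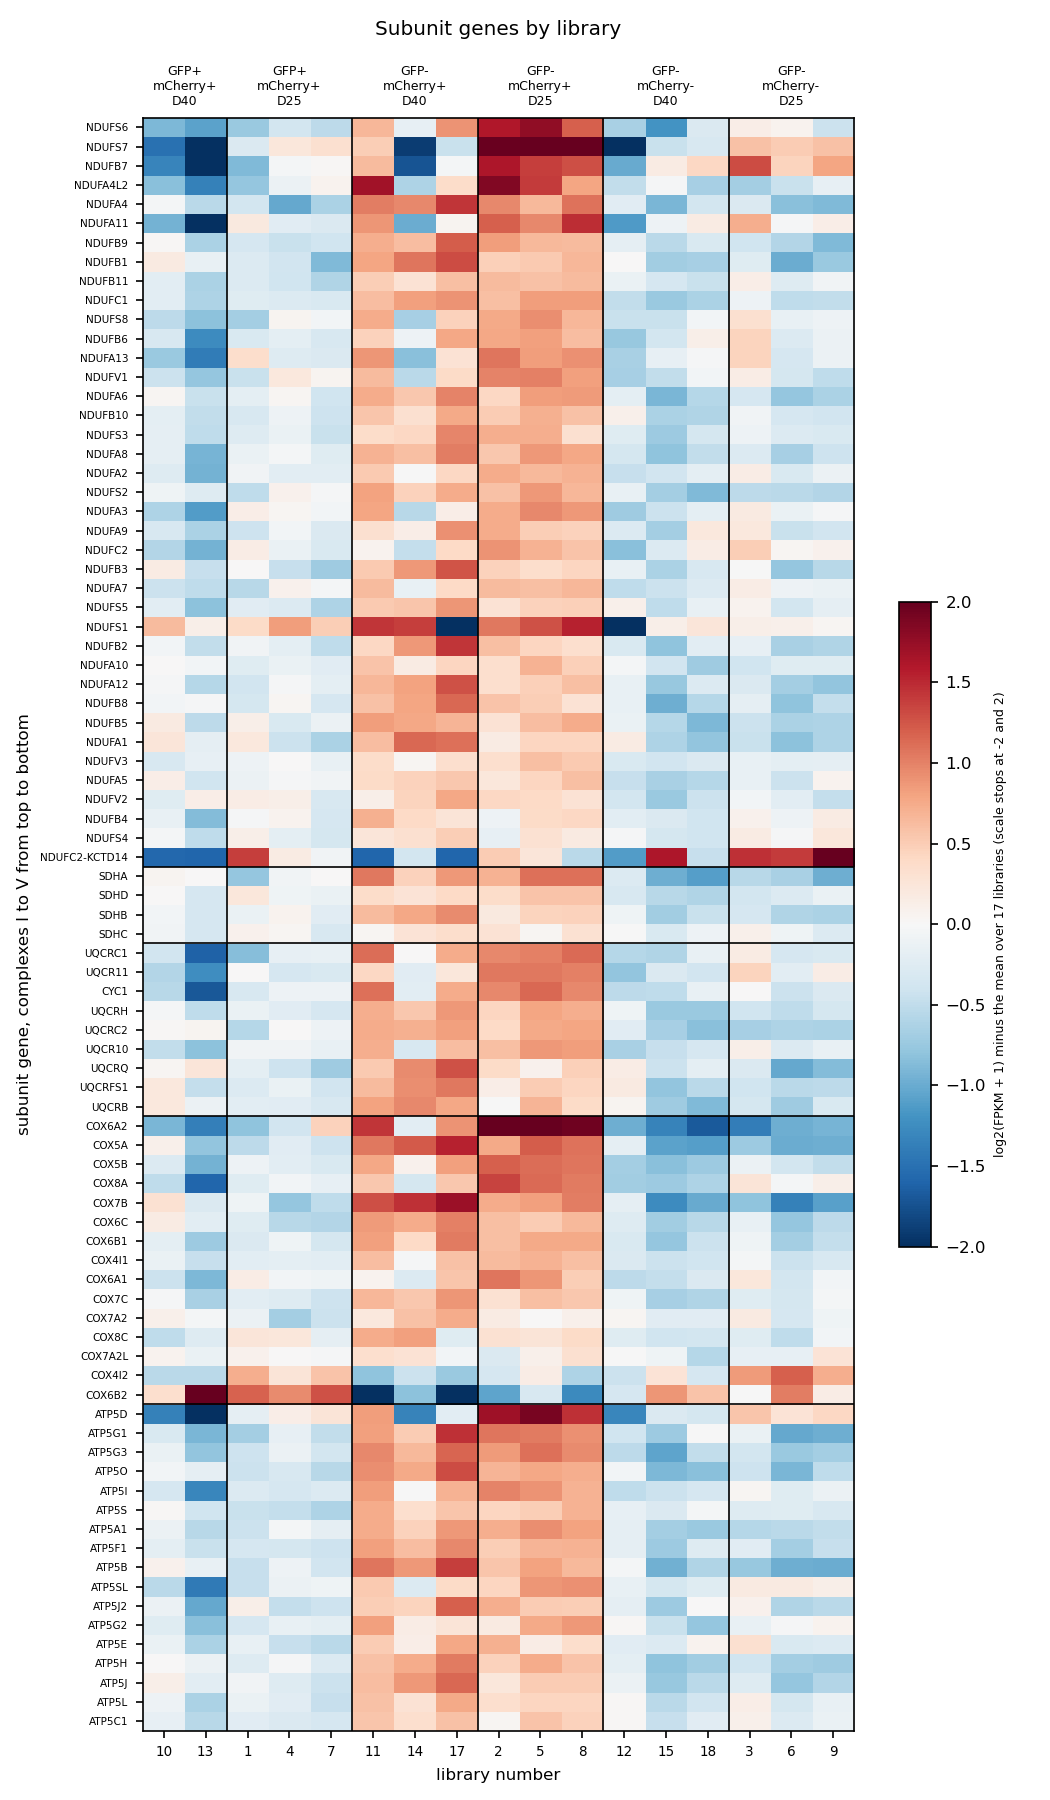
log2(FPKM + 1) of each tested subunit gene in each library, minus the gene's mean over the 17 libraries (colour, cut off at -2 and 2); rows run from complex I at the top to complex V at the bottom, columns by group. The GFP-mCherry+ libraries are above the mean for most genes. Libraries 13 (GFP+mCherry+) and 14 (GFP-mCherry+) have blue cells at NDUFS7, NDUFB7, NDUFA11 and ATP5D, and libraries 17 and 12 at NDUFS1, where it is listed at 0. Libraries 10 (GFP+mCherry+) and 12 (GFP-mCherry-) are also low at those 4 genes. Their ATP5D levels are 17.4 and 18.0 FPKM, against 17.4 FPKM in library 14. For NDUFS7 they are 10.8 and 7.32 FPKM, against 7.97 FPKM in library 14.

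Few subunits passed the test between the days. Between D40 and D25, 2 of 84 were lower and none higher in GFP+mCherry+ (16 with an unadjusted p under 0.05; 4.01% of all genes were called, 2.18% higher and 1.83% lower), 5 were lower in GFP-mCherry+ (24 with an unadjusted p under 0.05; 4.55% of all genes were called, 0.633% higher and 3.91% lower) and 1 was lower in GFP-mCherry- (9 with an unadjusted p under 0.05; 3.87% of all genes were called, 1.55% higher and 2.32% lower). The medians were -0.13, 0.00 and -0.11 in GFP+mCherry+, GFP-mCherry+ and GFP-mCherry-, beside -0.04, -0.03 and -0.09 over all genes. In GFP+mCherry+ the calls were ATP5D (-1.99, SE 0.47, adjusted p = 0.0248) and COX4I2 (-1.06, SE 0.27, adjusted p = 0.0386). In GFP-mCherry+ they were NDUFS7 (-2.70, adjusted p = 0.00819), COX6A2 (-2.02, adjusted p = 0.0149), ATP5D (-1.92, adjusted p = 0.0178), NDUFS6 (-1.06, adjusted p = 0.0385) and UQCR11 (-0.90, adjusted p = 0.0298), and in GFP-mCherry- COX4I2 (-1.09, adjusted p = 0.0206). The counts are small and unstable: with 1 library left out they ran from 0 (without library 4, 7 or 13) to 8 (without library 10) in GFP+mCherry+, from 1 (without library 2, 5, 14 or 17) to 13 (without library 11) in GFP-mCherry+, and from 0 (without library 3, 6, 12 or 18) to 3 (without library 14) in GFP-mCherry-.

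Day differences varied with the base composition of the transcripts. Over the 84 subunit genes, the correlation of transcript GC content with the D40 minus D25 difference was -0.666 in GFP+mCherry+ (Spearman -0.583), -0.675 in GFP-mCherry+ (-0.678) and -0.398 in GFP-mCherry- (-0.384). Over 14429 genes it was -0.329, -0.551 and -0.159 in GFP+mCherry+, GFP-mCherry+ and GFP-mCherry-. Genes are not independent replicates and share their libraries, so these values are a description. The 8 subunits with the highest GC content, 62% or more, are ATP5D (68.7%), NDUFS7, COX6A2, NDUFB7, NDUFS8, NDUFA4L2, NDUFA11 and NDUFA13. They held 2.17% and 1.72% of the summed FPKM of the subunits in the GFP+mCherry+ libraries of D40, against 4.03 to 4.36% at D25. The GFP-mCherry+ libraries of D40 had 4.01%, 1.31% and 2.22%, against 5.25 to 5.94% at D25, and the GFP-mCherry- libraries 2.40%, 5.10% and 5.17%, against 5.16 to 6.32% at D25. Of the 8 libraries of D40, 6 thus lie below every D25 library, and libraries 15 and 18 (both GFP-mCherry-) do not. With a correction for GC content the calls were 1 in GFP+mCherry+, 1 in GFP-mCherry+ and 0 in GFP-mCherry-. Between the populations the same correction gave 75 calls at D25 and 77 at D40 for GFP+mCherry+ against GFP-mCherry+. The direction of those calls and the share of all genes called with the correction are not given here. The part of base composition in the day or population differences was not tested. Markers of macrophages also moved with day. In GFP+mCherry+ their summed level was 74.9 to 169 FPKM at D40 against 15.0 to 19.2 FPKM at D25. It was 22.2 to 34 FPKM against 1.23 to 10.5 FPKM in GFP-mCherry+, and 13.7 to 26.2 FPKM against 9.14 to 9.80 FPKM in GFP-mCherry-. The part of these markers in the day calls was not tested.

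**Figure D5:**
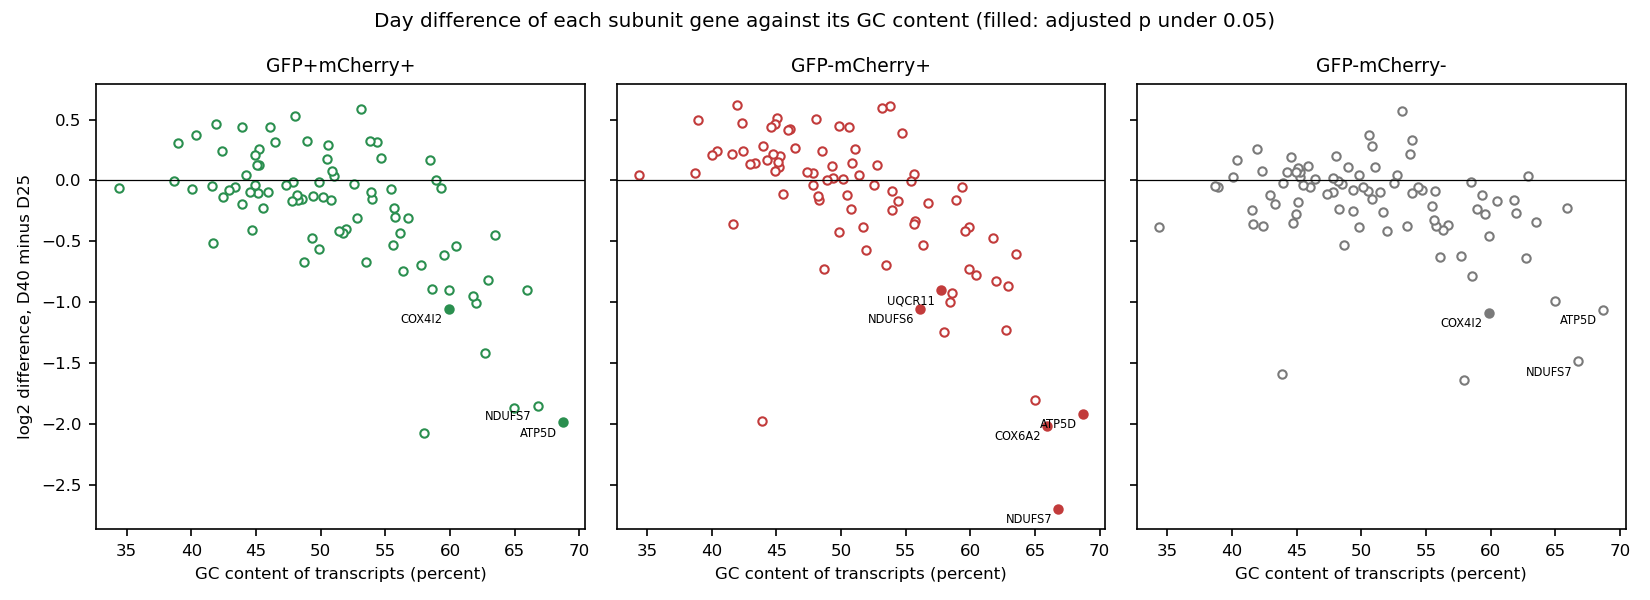
log2 difference of each tested subunit gene between D40 and D25 against the GC content of its transcripts (percent), for the 3 populations; filled points have an adjusted p under 0.05. The 8 genes of highest GC content lie below 0, except NDUFA4L2 in GFP-mCherry-, and the correlation is -0.666 in GFP+mCherry+, -0.675 in GFP-mCherry+ and -0.398 in GFP-mCherry-.

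Enzymes of the tricarboxylic acid cycle, which feed electrons to the chain, had 9 of 14 lower in GFP+mCherry+ than in GFP-mCherry+ at D25 (median -0.84) and 9 at D40 (median -0.91), with none higher. For this list and the next ones, the share of all genes called lower in this comparison was 8.37% at D25 and 9.30% at D40. Citrate synthase, CS, which opens the cycle, fell by 1.25 at D25 (adjusted p = 0.00181) and by 1.11 at D40 (adjusted p = 0.00469). FH, the fumarase, fell by 1.11 (adjusted p = 0.00402) and by 1.78 (adjusted p = 0.000346), and IDH2, an isocitrate dehydrogenase that makes NADPH, by 1.37 at both days (adjusted p = 0.000676 and 0.000947). In GFP-mCherry+ against GFP-mCherry-, 11 of 14 were higher at D25 and 12 at D40, where 12.1% and 13.3% of all genes were. IDH3A, of the isocitrate dehydrogenase that makes NADH, was also higher in GFP+mCherry+ than in GFP-mCherry- (1.45 at D25, adjusted p = 0.00113; 0.98 at D40, adjusted p = 0.0261).

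Carriers that exchange ADP, ATP and phosphate across the mitochondrial membranes had 5 of 7 lower at D25 and 6 of 7 at D40 in GFP+mCherry+ against GFP-mCherry+. SLC25A4, the ADP and ATP carrier of heart and muscle, had 86.5 and 52.4 FPKM in GFP+mCherry+ at D40, 257, 165 and 314 FPKM in GFP-mCherry+ and 49.6, 19.2 and 35.1 FPKM in GFP-mCherry-. The 3 groups do not overlap, and SLC25A4 was lower in GFP+mCherry+ than in GFP-mCherry+ by -1.80 (adjusted p = 0.00312), with -1.61 at D25 (adjusted p = 0.00431). Of 8 electron carriers and small subunits that the name rule misses, 6 were lower at D25 and 6 at D40. CYCS, the cytochrome c that links complexes III and IV, was among them (-0.999, adjusted p = 0.0311 at D25; -1.54, adjusted p = 0.00441 at D40), and so was ATPIF1, the inhibitor of the ATP synthase (-1.001, adjusted p = 0.000643; -0.73, adjusted p = 0.00561).

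Assembly factors, which build the complexes without staying in them, had 13 of 46 lower in the same comparison at D25 (median -0.45) and 15 of 46 at D40 (median -0.53), with none higher, beside 8.37% and 9.30% of all genes lower. UQCC2, for complex III, was lower at both days (-0.80, adjusted p = 0.00295; -1.13, adjusted p = 0.000523), as was COX14, for complex IV (-0.93, adjusted p = 0.00798; -1.09, adjusted p = 0.00444). Genes of mitochondrial import, chaperones and membrane shape had 6 of 18 lower and none higher at each day, beside the same shares, among them IMMT, which shapes the cristae (-0.72, adjusted p = 0.00917; -0.89, adjusted p = 0.00371). No test of the difference between these lists was made.

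Of 18 regulators of mitochondrial genes, 1 was higher and 2 were lower in GFP+mCherry+ than in GFP-mCherry+ at D25, where 20.4% of all genes were called, so the count is near that of genes at large. At D40, 2 were higher and 5 lower, where 25.5% of all genes were called, 16.2% higher and 9.30% lower. ESRRG, an orphan receptor known for metabolic genes of the heart, was lower (-1.25, adjusted p = 0.0273 at D25; -1.33, adjusted p = 0.0287 at D40). So was ESRRB, its relative (-0.82, adjusted p = 0.0328; -0.80, adjusted p = 0.0485). LRPPRC and SLIRP, which bind mitochondrial mRNAs, were lower at D40 (-0.69, adjusted p = 0.0221; -1.03, adjusted p = 0.0413). TFAM, which packs and transcribes mitochondrial DNA, was lower at D40 (-1.01, adjusted p = 0.00835) and not called at D25 (-0.31). PPRC1, a coactivator, was higher at both days (0.72, adjusted p = 0.0125; 0.69, adjusted p = 0.0215). The coactivator PPARGC1A had 12.3 and 7.63 FPKM in GFP+mCherry+ at D40, 22.8, 19.3 and 11.1 FPKM in GFP-mCherry+ and 3.28, 2.34 and 1.16 FPKM in GFP-mCherry-. It overlaps between the first 2 groups and was not called between them (-0.75, adjusted p = 0.217; -0.90, adjusted p = 0.112 at D25). Against GFP-mCherry-, PPARGC1A was higher in GFP+mCherry+ (2.185 at D25, adjusted p = 0.00187; 1.77 at D40, adjusted p = 0.0153) and in GFP-mCherry+ (3.09, adjusted p = 2.92e-05; 2.52, adjusted p = 0.000177). PPARGC1B was higher in GFP+mCherry+ than in GFP-mCherry+ at D40 (0.77, adjusted p = 0.02) and not called at D25 (0.28). ESRRA (-0.91 and -0.36), NRF1 (-0.08 and -0.15) and GABPA (0.13 and 0.21) were not called at D25 or D40.

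Markers of other cell types moved with the same contrasts. Cardiomyocyte markers were lower in GFP+mCherry+ than in GFP-mCherry+ for 6 of 10 genes at D25 and 8 of 10 at D40 (medians -1.22 and -1.40), and the summed values given above do not overlap. They were higher in GFP+mCherry+ than in GFP-mCherry- for 7 of 10 genes at D25 and 5 of 10 at D40 (medians 3.19 and 2.30). Of all genes 5.77% and 7.03% were called higher there. The summed level of 8 fibroblast markers (collagens, DCN, LUM and others) was 12453 to 23443 FPKM in GFP+mCherry+, 3946 to 6131 FPKM in GFP-mCherry+ and 10513 to 11927 FPKM in GFP-mCherry- at D25. At D40 it was 17987 to 18155 FPKM in GFP+mCherry+, 2912 to 9527 FPKM in GFP-mCherry+ and 16116 to 32049 FPKM in GFP-mCherry-. No fibroblast or cardiomyocyte marker was at 0 in all libraries of a group, and 6 of the 8 fibroblast markers were higher in GFP+mCherry+ than in GFP-mCherry+ at each day. Of 5 macrophage markers, 1 was higher at D25 and 5 at D40, and of 5 pacemaker markers (SHOX2 among them) 3 at D25 and 2 at D40. Between GFP+mCherry+ and GFP-mCherry+, 12.0% of all genes were called higher at D25 and 16.2% at D40. Epithelial, endothelial and hepatic markers summed to 954 to 1221, 209 to 231 and 453 to 537 FPKM in GFP+mCherry+ at D40, and to 678 to 1016, 16.6 to 50.7 and 142 to 349 FPKM in GFP-mCherry+. Their sums at D25 were 1610 to 1724, 37.1 to 224 and 569 to 1501 FPKM in GFP+mCherry+, and 885 to 1222, 15.7 to 38.4 and 109 to 633 FPKM in GFP-mCherry+. In GFP-mCherry- the sums were 1741 to 2957, 70.5 to 146 and 753 to 1653 FPKM at D40. The GFP-mCherry- sums at D25 were 2624 to 3038.5, 43.2 to 73.5 and 254 to 475 FPKM. Epithelial markers were thus highest in GFP-mCherry- at both days. The part of these cell types in the subunit differences was not tested.

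Cytosolic ribosomal protein genes are another set of short and abundant transcripts. Their median transcript length was 682.25 bases, that of the tested subunits 707.5 bases and that of all tested genes 1834 bases. Of 76 ribosomal genes tested, 27 were lower in GFP+mCherry+ than in GFP-mCherry+ at D25 and 20 at D40 (medians -0.58 and -0.54). Among all genes 8.37% and 9.30% were called lower. Against GFP-mCherry-, where the subunits had 0 and 1 calls, 42 of the 76 were lower in GFP+mCherry+ at D25 (median -0.74), and 21 lower and 1 higher at D40 (median -0.51). Among all genes 5.27% were called lower there at D25, and 4.75% lower and 7.03% higher at D40. In GFP-mCherry+ against GFP-mCherry-, where most subunits rose, 0 of 76 were called at D25 (median -0.15) and 1, higher, at D40 (median -0.01). The shares of all genes called in either direction were 28.5% and 31.9%. With a correction for transcript length 68 subunits were called at D25 and 72 at D40 between GFP+mCherry+ and GFP-mCherry+. The direction of these calls and the share of all genes called with the correction are not given here. The part of transcript length in the subunit differences was not tested.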

How the data were processed

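Libraries came from a TruSeq RNA kit, as the labels' protocols state. The submitters' processing notes list bcl2fastq 2.19, cutadapt, STAR 2.5.2b, Cufflinks 2.1.1 and hg19, with no roles or settings. The deposited values are FPKM from the authors. No unit stands in the file's header, and FPKM was inferred from Cufflinks and from the values. Read depth is unknown, and no counting intervals were computed.

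The table has 20368 rows. Where a gene name had several rows (4 subunits), the row with the highest mean was kept. The patterns matched 94 rows, 2 of them pseudogenes (COX6A1P2, ATP5EP2). Values were tested as log2(FPKM + 1), a pseudocount of 1, after a filter of 1 FPKM in 2 or more libraries, with limma 3.58.1 in R 4.3.3 (lmFit, contrasts.fit, eBayes with trend). The fit gave a mean to each of 6 groups over 17 libraries (11 residual degrees of freedom). P-values were adjusted by Benjamini-Hochberg over all tested genes of a comparison, and the script was tested on simulated data. SE is limma's standard error. Transcript length and GC content are medians over protein-coding transcripts of GENCODE v29, found for 97.2% of the tested genes. Promoters come from a RefSeq table of GRCh38.p14. The alternatives were other pseudocounts, filters and scalings, library weights, a block, fits of only the groups compared, libraries left out, zeros as missing values, and length and GC corrections.

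The members and lists were chosen with earlier results of these data known. Genes were named by rule: COX6A2, COX5A, COX5B, ATP5G3 and NDUFS7; paired isoforms; complex II; the called gene with the largest rise and fall of each complex and comparison; genes called against the majority; genes at 0 or below the filter; uncalled genes of complexes with 5 or fewer of them; in each list the genes with the smallest adjusted p; and 7 regulators. COX7C, IMMT, CS, SLIRP, LRPPRC and the GC-rich genes fall partly outside it and were named after their values were seen.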

Additional observations from a re-analysis of the deposited data

How the results depend on the processing

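Counts of called subunits, adjusted by Benjamini-Hochberg in limma, kept within 1.5 times the main count for GFP+mCherry+ over GFP-mCherry+ at D25 (68), and for GFP-mCherry+ over GFP-mCherry- (65 at D25, 66 at D40), under every alternative other than leaving out a library, and the interaction count stayed at 0. GFP+mCherry+ against GFP-mCherry+ at D40 (71) fell to 15 with only the groups compared, to 37 with a replicate block and to 33 without libraries 13 and 14. GFP+mCherry+ against GFP-mCherry- at D25 (0) gave 1 under quantile normalisation, 2 with only the groups compared, 23 with library weights, 3 with the block and 1 without libraries 13 and 14. At D40 (1) it gave 2 with a pseudocount of 0.1 or quantile normalisation, and 0 with no filter, only the groups compared, the block, or without libraries 13 and 14. D40 against D25 in GFP+mCherry+ (2) gave 1 with median-of-ratios scaling, the 5 FPKM filter, only the groups compared, or a length or GC correction, 8 with weights and 0 without libraries 13 and 14. In GFP-mCherry+ (5) it gave 3 with median-of-ratios scaling or the length correction, 0 with only the groups compared, 11 with weights, and 1 without libraries 13 and 14 or with the GC correction. In GFP-mCherry- (1) it gave 0 with a pseudocount of 0.1, a filter at 5 FPKM or the GC correction, 3 with weights and 4 without libraries 13 and 14. With 1 library left out, the count for GFP+mCherry+ over GFP-mCherry+ ran from 42 to 71 at D25 and from 9 to 73 at D40. For GFP-mCherry+ over GFP-mCherry- it ran from 52 to 69 at D25 and from 55 to 73 at D40, and for GFP+mCherry+ over GFP-mCherry- from 0 to 0 at D25 and from 0 to 11 at D40. For D40 over D25 it ran from 0 to 8 in GFP+mCherry+, from 1 to 13 in GFP-mCherry+ and from 0 to 3 in GFP-mCherry-, and for the interaction from 0 to 0. NDUFS1 reversed to -1.03 in GFP+mCherry+ against GFP-mCherry+ at D40 with its zeros set to missing. The cause of the other moves was not tested, beyond the fewer libraries of some fits. The shares of all genes called are not set beside these counts. A count alone thus does not separate the subunits from the whole fit.

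The block used sets of consecutive library numbers. The labels give no shared replicate numbers. The numbers in the titles run through the 3 populations in a repeating order, and number 16, the place of a GFP+mCherry+ library, is absent. The labels do not say that the libraries of a set were sorted together. Libraries of a set correlated in their deviations from the group means by -0.123 to 0.458, with 14 of 16 such pairs above 0, and libraries of different sets by -0.372 to 0.251, with 10 of 32 above 0. Deviations sum to 0 within a group, so positive values within sets push those between sets below 0. These counts are therefore not independent of each other. Between GFP-mCherry+ and GFP-mCherry- at D25 all 3 pairs of a set exceeded 0.1 (0.16 to 0.372). Each of the 6 libraries there correlated best with its own set. These values and the order of the numbers hint that the sets pair the libraries, which the labels do not state. The block there called 76 subunits in place of 65. For GFP+mCherry+ and GFP-mCherry+ at D25, and for GFP-mCherry+ and GFP-mCherry- at D40, the same did not hold. In each of those, 2 of 6 libraries correlated best with their own set. GFP+mCherry+ has only 2 sets at D40. Quantile normalisation moved the median of all genes by -0.134 in GFP+mCherry+ against GFP-mCherry+ at D40, where the subunits' median was then -0.85, and the length correction moved it by 0.106 in GFP-mCherry+ between the days. Of all genes called in GFP+mCherry+ over GFP-mCherry+ at D40, 63.5% were higher in the reported fit, 49.9% under quantile normalisation and 51.9 to 53.6% with median-of-ratios scaling or the length or GC correction. For D40 over D25 in GFP-mCherry+ the share was 13.9%, and 26 to 27.2% under quantile normalisation and the length correction and 68.5% with the GC correction. In GFP+mCherry+ it was 54.3%, and 72.6% with the GC correction; in GFP-mCherry- 40.1%, and 50.9% and 55.9% with the length and GC corrections. The length and GC corrections and the summing of rows of a name were chosen after seeing the data. Of the named subunits called between GFP+mCherry+ and GFP-mCherry+, 13 of 32 at D25 and 30 of 35 at D40 lost the call under at least 1 alternative, as did 6 of 29 at D25 and 11 of 30 at D40 between GFP-mCherry+ and GFP-mCherry-. For the 43 named subunits, 12109 of 12708 values under an alternative kept their direction and side of the threshold, with 371 losing and 227 gaining a call; of the 8444 not called under either setting, 332 had the other sign and count as kept. Depth being unknown, low values such as those of COX6A2, COX4I2 and COX8C carry an error that cannot be given.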
